A study of Arabidopsis thaliana with 12 samples.

Results

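The genes described here are 5 Arabidopsis thaliana genes for enzymes of anthocyanin synthesis, DFR (AT5G42800), UGT78D2 (AT5G17050), UF3GT (AT5G54060), AT4G14090 and AT5MAT (AT3G29590). Each was measured by 1 probe set, the set of short oligonucleotides that the array holds for a transcript, and the 5 probe sets were those that the gene table paired with exactly 1 of these genes. They are 5 of 13286 genes with a probe set of their own, and 5 of 22746 probe sets tested. They were chosen by their log2 values on these same arrays, so their levels and differences are given as a description and no p-value is given for any of them.

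Wild-type seedlings grown on MS plates were profiled whole on 12 arrays in 4 groups of 3 biological replicates. One group received BLM at 4 µg/ml together with INA at 10 µM, one BLM alone at 4 µg/ml, one INA alone at 10 µM, and the control, called CK, received neither. By the series title BLM damages DNA and INA induces immunity, and the study addressed their joint action on defence genes. Seedling age, length of treatment and any solvent given to CK are not stated in the labels used here.

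Anthocyanins are flavonoid pigments that plant cells store in the vacuole. The early steps of the flavonoid pathway also feed the flavonols, and dihydroflavonol reductase leads dihydroflavonols away towards anthocyanidins. Glycosyltransferases and acyltransferases then attach sugars and acyl groups, which stabilise the pigment and shift its colour. In Arabidopsis seedlings the late enzyme genes are known to be switched on together by complexes of MYB, bHLH and WD-repeat proteins, for instance under strong light, sugar or cold.

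Each value below is on the log2 scale and relative to the median of that probe set on the 12 arrays, because the deposited table was centred so. A value therefore ranks the arrays for 1 gene and does not give a level that can be set against another gene. A coarse level follows from how finely the stored numbers are stepped, since the spacing widens with the size of the uncentred log2 value. For UGT78D2, 0 of 12 arrays fell off the spacing of uncentred values of 8 or over. For DFR, UF3GT, AT4G14090 and AT5MAT between 3 and 6 arrays fell off it, which places those arrays below 8, and 0 fell off the spacing of values of 4 or over.

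The replicate 3 arrays, 1 in each group, stood apart from the others. Over all probe sets their deviations from the group means correlated with r from 0.23 to 0.40 in 6 pairs, and with those of arrays numbered 1 or 2 from -0.36 to -0.039 in 24 pairs. The 24 pairs without a replicate 3 array had r from -0.053 to 0.25. Deviations sum to 0 over the 3 arrays of a group, so positive r among replicate 3 arrays pulls their r with the other arrays down. The negative values are therefore no separate evidence. The actin 3′ minus 5′ signal, a sign of RNA quality, was highest in replicate 3 in 4 of 4 groups. So was the 3′ minus 5′ signal of the dap control. It was 0.85 or over in replicate 3 and 0.19 or under on all other arrays. This control is not an Arabidopsis transcript, so its signal is no sign of seedling RNA quality. The GAPDH signal was highest in replicate 3 in INA and CK, in replicate 1 in BLM+INA and in replicate 2 in BLM. Whether RNA quality or another step set the replicate 3 arrays apart was not tested. The actin signal averaged 0.17 ± 0.41 in BLM+INA, 0.080 ± 0.22 in BLM, -0.14 ± 0.25 in INA and -0.051 ± 0.38 in CK (SD, n = 3). It therefore overlapped between groups. The labels call the replicates biological and name no batch, and results without the replicate 3 arrays are given below.

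DFR, the reductase at the entry to the anthocyanin branch, stood at 1.02, 1.01 and 0.94 on the BLM+INA arrays, at 2.35, 2.34 and 2.42 on the BLM arrays, at -2.05, -2.52 and -1.80 on the INA arrays and at -1.06, -1.39 and -0.94 on the CK arrays. BLM arrays were highest, followed by BLM+INA, CK and INA, and no array of one group overlapped those of another. Its range of 4.95 over the arrays was larger than that of 99.9% of the probe sets tested. The difference from CK was 2.12 ± 0.15 (SE, n = 3 arrays per group) with both agents, which is 4.34-fold, and 3.50 ± 0.15 with BLM alone, which is 11.3-fold. With INA alone it stood at -0.99 ± 0.15 against CK, a ratio of 0.502.

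UGT78D2, which attaches glucose to the 3 position of flavonols and anthocyanidins, stood at -0.054, -0.023 and -0.31 with BLM+INA, at 0.52, 0.67 and 0.51 with BLM, at 0.037, -0.12 and -0.20 with INA and at 0.033, -0.0033 and 0.0033 in CK. The BLM arrays lay above all 9 others, and INA overlapped CK and BLM+INA. The BLM+INA arrays lay below the CK arrays with a gap of 0.020, smaller than the SD of 0.16 among the BLM+INA arrays. The difference of BLM from CK was 0.55 ± 0.10, or 1.47-fold, and that of BLM+INA from CK was -0.14 ± 0.10, or -0.050 without BLM+INA replicate 3. Its range of 0.98 was the smallest of the 5 genes.

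UF3GT, also called UGT79B1, adds xylose to the anthocyanidin 3-glucoside. It stood at 0.19, 0.96 and 0.50 with BLM+INA, at 1.95, 1.70 and 1.92 with BLM, at -0.88, -0.54 and -0.96 with INA and at -0.19, -0.45 and -0.26 in CK. The 4 groups lay in the same order as for DFR without overlap, and the BLM+INA arrays spread most (SD 0.39). Differences from CK were 0.85 ± 0.16 with BLM+INA, 2.15 ± 0.16 with BLM (4.45-fold) and -0.49 ± 0.16 with INA.

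AT4G14090, which the gene tables list by its locus alone and which is grouped here with the anthocyanin glycosyltransferases, stood at 0.70, 0.71 and 0.37 with BLM+INA, at 1.80, 1.67 and 1.70 with BLM, at -1.11, -0.74 and -1.38 with INA and at -0.37, -0.77 and -0.67 in CK. BLM and BLM+INA arrays were separate from each other and from the rest, while INA and CK overlapped through INA replicate 2. Differences from CK were 1.20 ± 0.15 with BLM+INA, 2.33 ± 0.15 with BLM (5.02-fold) and -0.47 ± 0.15 with INA. Without INA replicate 3 the last was -0.32.

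AT5MAT, the malonyltransferase that acylates the glucose at the 5 position of anthocyanins, stood at 0.18, 0.58 and -0.011 with BLM+INA, at 1.47, 1.45 and 1.48 with BLM, at -0.83, -0.97 and -0.74 with INA and at 0.011, -0.42 and -0.18 in CK. Here the BLM+INA and CK arrays overlapped by 0.021, and the INA arrays lay below all others. Differences from CK were 0.45 ± 0.14 with BLM+INA, 1.66 ± 0.14 with BLM (3.17-fold) and -0.65 ± 0.14 with INA. The first of these was 0.28 without BLM+INA replicate 2.

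**Figure D1:**
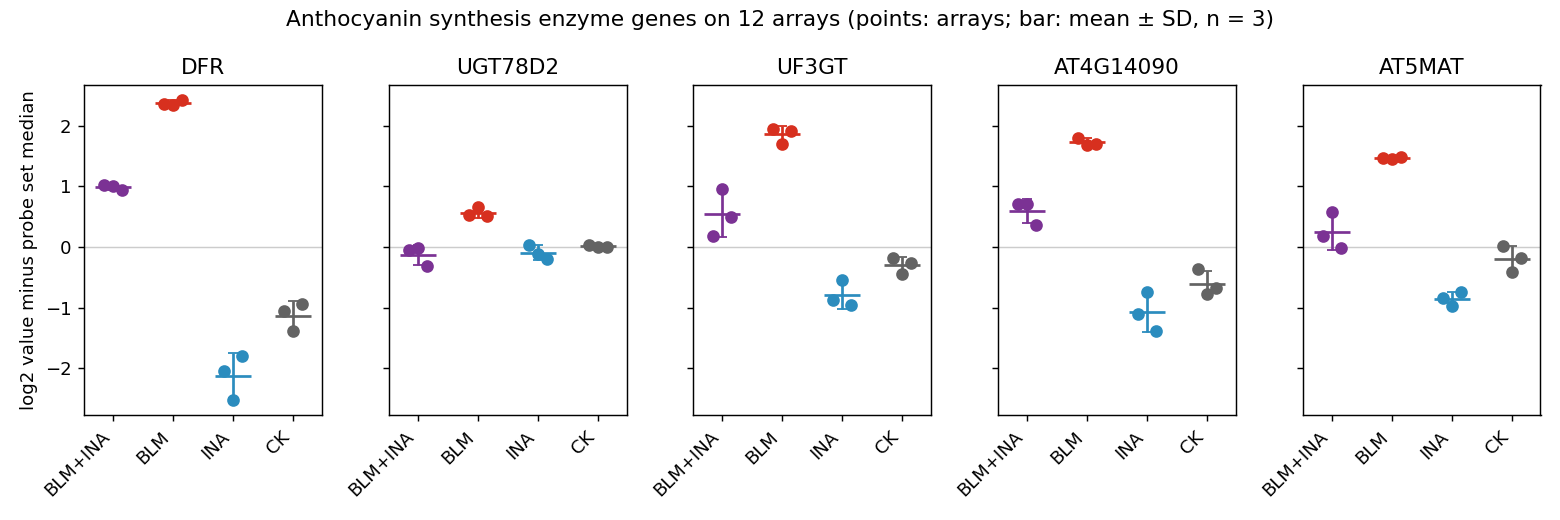
Values of the 5 enzyme genes (log2 minus the probe set's median over 12 arrays, vertical axis) for BLM+INA, BLM, INA and CK. Points are arrays, and the horizontal and vertical bars are the mean and SD (n = 3). In every panel the 3 BLM points lie above all others, up to 2.42 for DFR.

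The comparison of BLM with CK asked what the DNA-damaging agent changed by itself. All 5 genes were higher with BLM, by 0.55 to 3.50 with a median of 2.15, where the median over all probe sets was 0.042. Among all 22746 probe sets ordered by this difference, DFR ranked 3 from the top, AT4G14090 18, UF3GT 26, AT5MAT 69 and UGT78D2 866. In the limma fit 5 of 5 passed an adjusted p of 0.05 upward, where 8.38% of all probe sets did, and in 5 of 5 the BLM arrays lay above the CK arrays, where 18.4% of all did. Since these contrasts chose the genes, nothing is read from these counts or from those that follow for the same 5 genes.

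Of 7 tissue markers measured in the same seedlings, 3 fell with BLM. Of 12 root genes 3 were measured, and 2 of them fell, the root hair expansin genes EXPA7 and EXPA18, where 8.29% of all probe sets fell. EXPA7 fell by 1.21 ± 0.12 (limma adjusted p = 9.72e-07) and EXPA18 fell by 0.82 ± 0.11 (adjusted p = 3.79e-05). PYK10, a beta-glucosidase gene of the root, had a difference of -0.063 ± 0.10. The mean of the 3 over an array lay from -0.40 to -0.36 in BLM+INA, from -0.34 to -0.32 in BLM, from 0.22 to 0.35 in INA and from 0.32 to 0.44 in CK. Of 12 green tissue genes 4 were measured, and their mean lay from -0.18 to -0.17 in BLM+INA, from -0.062 to -0.017 in BLM, from 0.0083 to 0.097 in INA and from 0.072 to 0.16 in CK. PSAN, a photosystem I subunit gene, fell by 0.52 ± 0.09 with BLM (adjusted p = 0.000588), and RCA, LHCB4.2 and PRK did not pass (adjusted p from 0.595 to 0.917). In whole seedlings fewer cells of a type and less RNA per cell cannot be told apart, and the part of tissue makeup in the values of the 5 genes was not tested. Whether the markers are absent could not be read from centred values, but for PYK10 and the 4 green genes 0 of 12 arrays fell off the spacing of values of 8 or over.

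The comparison of INA with CK asked what the immune inducer changed by itself. All 5 genes stood lower, by differences from -0.99 for DFR to -0.11 for UGT78D2, with a median of -0.49 against 0.0079 over all probe sets. Of all probe sets 0.0176% had a lower difference than DFR, 0.145% a lower one than AT5MAT and 17.9% a lower one than UGT78D2. DFR and AT5MAT, 2 of 5, passed the threshold downward, where 0.251% of all probe sets did. That count was 1 of 5 without the replicate 3 arrays and 0 of 5 with unmoderated variances. Calls over all probe sets fell too in both settings. Without the replicate 3 arrays they went from 264 to 172 in either direction, and the downward part is not given here. With unmoderated variances the downward calls went from 57 to 20. In 3 of 5, DFR, AT5MAT and UF3GT, the INA arrays lay below the CK arrays, where 5.68% of all did.

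Setting BLM+INA against BLM gave the change with INA where BLM was already present. All 5 genes stood lower with both agents, and no array of either group overlapped the other. The difference was -1.38 ± 0.15 for DFR, -1.30 ± 0.16 for UF3GT, -1.22 ± 0.14 for AT5MAT, -1.13 ± 0.15 for AT4G14090 and -0.70 ± 0.10 for UGT78D2. As ratios these lay between 0.384 and 0.618. The median was -1.22 against -0.015 over all probe sets, 5 of 5 passed downward where 2.37% of all did, and 5 of 5 were separate downward where 11% of all were.

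The means of the 5 genes were lower with INA both in the presence and in the absence of BLM. The 2 comparisons share no arrays, but the genes were chosen with the values of both. Neither is therefore an independent check on the other. DFR had -1.38 with BLM and -0.99 without. UF3GT had -1.30 with BLM and -0.49 without, AT4G14090 -1.13 and -0.47, and AT5MAT -1.22 and -0.65. UGT78D2 had -0.70 with BLM, where the arrays were separate, and -0.11 without, where they overlapped (-0.050 without INA replicate 3). Quantile normalization of the centred values moved 3 of these values by over 1.5 times, DFR to -2.18 with BLM and -1.72 without, and AT4G14090 to -0.78 without.

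**Figure D2:**
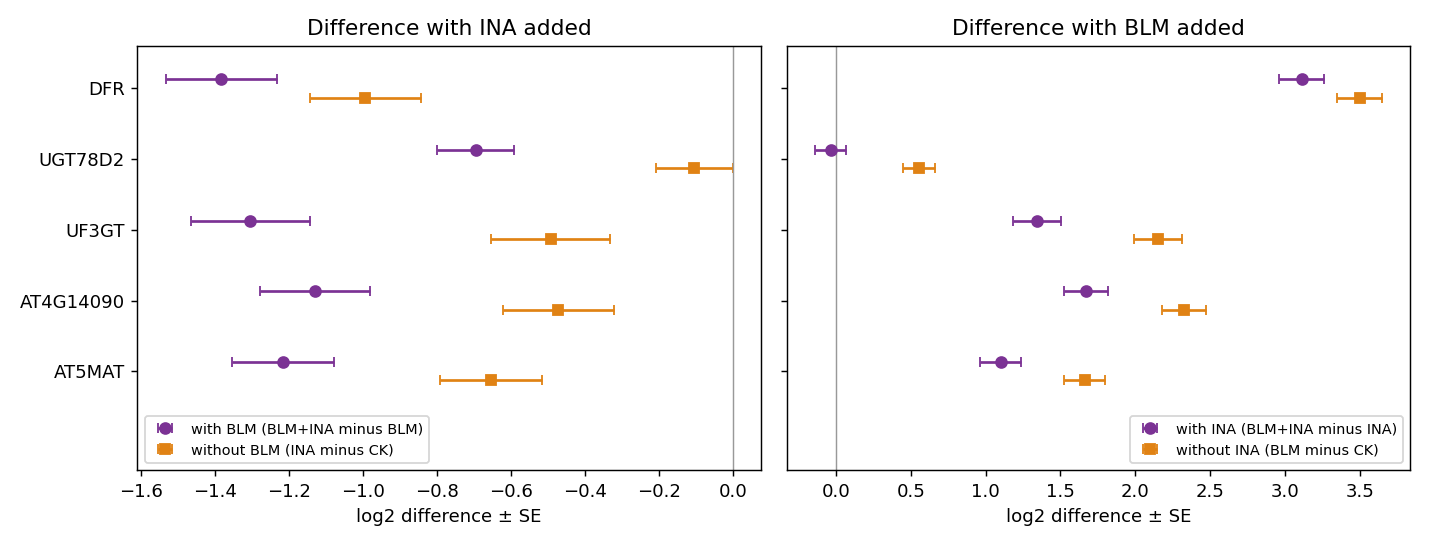
Log2 differences (horizontal axis, ± SE) of the 5 enzyme genes. The left panel shows INA added with BLM present (BLM+INA minus BLM, circles) and absent (INA minus CK, squares), and the right panel BLM added with INA present (BLM+INA minus INA, circles) and absent (BLM minus CK, squares). Each circle lies left of its square, as for DFR at -1.38 and -0.99 in the left panel. The distance from square to circle is the interaction in either panel, so the order in the left panel fixes that in the right.

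**Figure D3:**
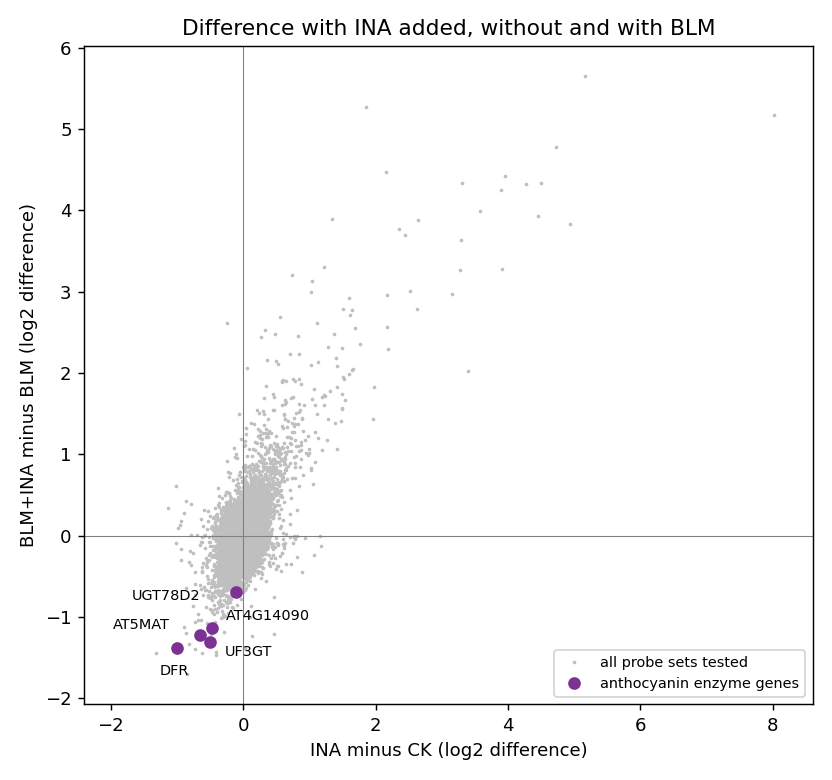
Log2 difference with INA added in the absence of BLM (INA minus CK, horizontal axis) and in its presence (BLM+INA minus BLM, vertical axis) for the 22746 probe sets tested (grey) and the 5 enzyme genes (purple). DFR lies at -0.99 and -1.38, near the lower left end of the cloud, and UGT78D2 at -0.11 and -0.70.

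Against INA alone, BLM+INA asked what BLM changed where INA was present. DFR stood 3.11 ± 0.15 higher (8.65-fold), AT4G14090 1.67 ± 0.15, UF3GT 1.34 ± 0.16 and AT5MAT 2.15-fold, each with separate arrays. UGT78D2 stood at -0.036 ± 0.10 and its arrays overlapped. Thus 4 of 5 passed upward, where 9.27% of all probe sets did, and 4 of 5 were separate upward, where 17.1% were.

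Set against CK, both agents together left DFR, AT4G14090 and UF3GT higher with separate arrays, AT5MAT higher with overlapping arrays and UGT78D2 at -0.14. The median was 0.85 against 0.018 over all probe sets. In the fit 4 of 5 passed upward, where 11.2% of all probe sets did. Arrays were separate upward for 3 of 5, where 19.3% of all were, and downward for 1 of 5, where 18.3% were.

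The interaction, BLM+INA minus BLM minus INA plus CK, is 0 where the joint change is the sum of the single changes on the log2 scale. It was negative for all 5 genes, at -0.81 ± 0.23 for UF3GT, -0.66 ± 0.21 for AT4G14090, -0.59 ± 0.15 for UGT78D2, -0.56 ± 0.19 for AT5MAT and -0.39 ± 0.21 for DFR. The median was -0.59 against -0.022 over all probe sets. By limma 0 of 5 passed the adjusted threshold, where 0.382% of all probe sets did. At an unadjusted p under 0.05, 4 of 5 passed, where 7.47% of all probe sets did, and with unmoderated variances, with robust variances and with the replicate number as a block the count after adjustment was 0. The value for DFR was -0.59 without INA replicate 2, -0.26 without CK replicate 2 and -0.23 without INA replicate 3.

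Without the replicate 3 arrays, with 2 arrays per group, the differences of the 5 genes from CK with BLM lay between 0.58 and 3.57. Those of BLM+INA against BLM lay between -1.33 and -0.63, and those of INA against CK between -1.06 and -0.054. The interaction stood between -0.86 for UF3GT and -0.27 for DFR, and at -0.38 for AT5MAT. UGT78D2 stood at -0.053 in BLM+INA against CK and at 0.00078 in BLM+INA against INA, and the other 4 genes kept their direction in these 6 contrasts.

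The group means of 4 of the 5 genes ran in the order BLM, BLM+INA, CK, INA, which 8.99% of all probe sets shared. For DFR and UF3GT, 2 of 5, the arrays of all 4 groups were separate in that order, as for 23 of all probe sets, which is 0.101%. Of those 23, 14 were paired with exactly 1 gene. UGT78D2 departed from the order, with means of -0.13 ± 0.16 (SD, n = 3) in BLM+INA, 0.57 ± 0.088 in BLM, -0.094 ± 0.12 in INA and 0.011 ± 0.020 in CK. Its BLM+INA, INA and CK means do not differ beyond the spread of their arrays, apart from the gap of 0.020 between BLM+INA and CK.

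Over the 12 arrays the 5 profiles correlated with Pearson's r from 0.67 to 0.98 in 10 pairs. The pair most alike was UF3GT and AT4G14090 (r = 0.98), and the least alike was DFR and UGT78D2 (r = 0.67). These values mostly restate the 4 group means, and the genes share arrays. Deviations from the group means correlated with r from -0.45 to 0.52, above 0 in 7 of 10 pairs. All 5 genes lay above their group mean in CK replicate 1 and BLM+INA replicate 2, and 0 of 5 did in CK replicate 2 and BLM+INA replicate 3.

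The rest of the pathway was sparsely named. Of 65 listed genes of phenylpropanoid and flavonoid metabolism and its regulators, 9 were paired with a probe set of their own. They were 1 gene of the early flavonoid steps, 3 of the flavonol branch, 2 of the proanthocyanidin branch and 3 of the monolignol and sinapate branch. The general phenylpropanoid list, the other late anthocyanin genes, the activators and the repressors had 0 each, so chalcone synthase, LDOX, PAP1, PAP2, TT8 and MYBL2 are not analysed here. The lists were drawn up by pathway step, and these 9 genes were tested with limma.

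With BLM against CK, 2 of the 9 rose, where 8.38% of all probe sets did, and 1 fell, where 8.29% did. UGT78D1, the flavonol 3-rhamnosyltransferase and a close relative of UGT78D2, rose by 0.51 ± 0.12 (adjusted p = 0.00785). Its means were 0.026 ± 0.069 (SD, n = 3) in BLM+INA and 0.35 ± 0.24 in BLM, against -0.16 ± 0.13 in CK. AT1G06000, of the flavonol list, fell by 0.74 ± 0.10 (adjusted p = 3.95e-05). ALDH2C4 (REF1), the aldehyde dehydrogenase of ferulate and sinapate formation, rose by 0.42 ± 0.11 (adjusted p = 0.0138), a call lost without BLM replicate 1 or CK replicate 3 (0.35 each). The early flavonoid protein gene CHIL, which helps chalcone synthase, stood at 0.29 ± 0.11 (adjusted p = 0.0901).

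With BLM+INA against CK, 2 of the 9 rose, where 11.2% of all probe sets did, and 2 fell, where 11% did. CHIL fell by 0.53 ± 0.11 (adjusted p = 0.00182) and AT1G06000 fell by 0.64 ± 0.10 (adjusted p = 0.000112). ALDH2C4 rose by 0.45 ± 0.11 (adjusted p = 0.00539). CCR2, a cinnamoyl-CoA reductase, rose by 0.35 ± 0.12 (adjusted p = 0.036), a call lost without BLM+INA replicate 1 or 3 or CK replicate 1 or 2, without the replicate 3 arrays (adjusted p = 0.0558) and with unmoderated variances (adjusted p = 0.0741).

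With BLM+INA against BLM, 0 of the 9 rose, where 3.44% of all probe sets did, and 2 fell, where 2.37% did. CHIL fell by 0.82 ± 0.11 (adjusted p = 0.000109), with means of -0.39 ± 0.17 in BLM+INA and 0.42 ± 0.16 in BLM (SD, n = 3). BAN, the anthocyanidin reductase of the proanthocyanidin branch, fell by 0.45 ± 0.13 (adjusted p = 0.043). That call was lost without BLM+INA replicate 1 or 3, BLM replicate 1 or 3, INA replicate 2 or CK replicate 2, with values from -0.53 to -0.36 without single arrays. It was also lost without the replicate 3 arrays (adjusted p = 0.134), and with quantile normalization, array weights, unmoderated variances and only the compared groups in the fit (adjusted p from 0.0632 to 0.135). UGT78D1 stood at -0.33 ± 0.12 (adjusted p = 0.157). UGT78D3, which lies 1 gene away from UGT78D2 in the RefSeq table and is named outside the rule, stood at -0.17 ± 0.14.

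With BLM+INA against INA, 1 of the 9 fell, where 9.52% of all probe sets did, and 1 rose, where 9.27% did. AT1G06000 fell by 0.53 ± 0.10 (adjusted p = 0.000918) and ALDH2C4 rose by 0.37 ± 0.11 (adjusted p = 0.0246), the second a call lost without BLM+INA replicate 2 (0.31), INA replicate 3 (0.29) or all replicate 3 arrays (0.32). CCR2, at 0.32 ± 0.12, passed without INA replicate 1 (0.44) and with array weights (0.34). With INA against CK, 0 of the 9 passed by limma in either direction, where 1.16% of all probe sets did. At an unadjusted p under 0.05, 1 passed, CHIL at -0.26 ± 0.11, and the share of all probe sets at that p is not given here. For the interaction 0 of the 9 passed by limma, where 0.382% of all probe sets did. At an unadjusted p under 0.05, 2 of the 9 passed, where 7.47% of all did. Unmoderated variances, robust variances and the replicate block gave 0 of the 9 for INA against CK and for the interaction. Of all probe sets those fits called 117, 265 and 356 for INA against CK and 2, 86 and 170 for the interaction.

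**Figure D4:**
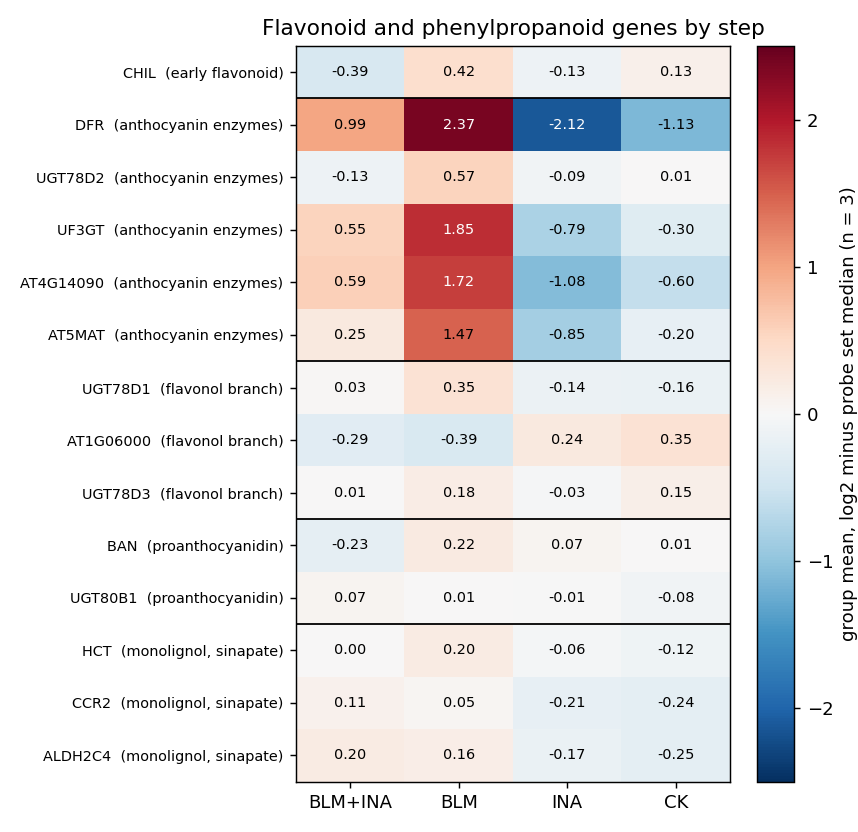
Group means (log2 minus the probe set's median, n = 3, colour scale and printed value) of the 5 enzyme genes and the 9 other pathway genes measured, ordered by step from early flavonoid genes at the top to monolignol and sinapate genes at the bottom. DFR spans -2.12 in INA to 2.37 in BLM, and the flavonol, proanthocyanidin and monolignol genes stay between -0.39 and 0.35.

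A further probe set was paired with 2 genes of the late anthocyanin list at once, so it measures neither alone and is given no gene name. It was singled out after its values were seen. It stood at -0.028, 0.41 and 0.19 with BLM+INA, at 1.50, 1.70 and 1.54 with BLM, at -0.91, -1.12 and -0.93 with INA and at 0.028, -0.68 and -0.12 in CK. BLM arrays were above all others and INA arrays below them. It rose by 1.84 ± 0.15 with BLM (limma adjusted p = 1.84e-07) and fell by 1.39 ± 0.15 in BLM+INA against BLM (adjusted p = 1.21e-05). It fell by 0.73 ± 0.15 with INA (adjusted p = 0.0226), a call lost with unmoderated variances (adjusted p = 0.28), with only the compared groups in the fit (adjusted p = 0.0536) and without INA replicate 1 or 2 or CK replicate 1 or 3.

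UGT78D2 and UF3GT belong to the family of UDP-dependent glycosyltransferases, which attach sugars to hormones, defence compounds and flavonoids. Of 48 other genes whose symbol begins with UGT or whose table entry names a UDP-glucosyl or UDP-glycosyl transferase, each with 1 probe set, 10 passed with BLM against CK, 8 upward and 2 downward. That is 20.8% of them, where 16.7% of all probe sets passed. These 48 include UGT78D1, UGT78D3 and UGT80B1 of the pathway lists, but not AT1G06000, which the tables name by locus alone. Other family genes whose entries carry no such name are missed too. The counts and ranges are thus of the named genes and not of the whole family. Their median difference was 0.14, and they ranged from -1.18 to 0.81, while the range of the 5 enzyme genes was 0.55 to 3.50. In BLM+INA against BLM, 4 of the 48 rose, where 3.44% of all probe sets did, and 0 fell, where 2.37% did. At an unadjusted p under 0.05, 7 rose and 5 fell, and with unmoderated variances, robust variances and the replicate block 3, 4 and 7 passed after adjustment. In BLM+INA against CK 17 of the 48 passed, 12 upward and 5 downward, which is 35.4%, where 22.2% of all probe sets passed. Without the replicate 3 arrays 8 of the 48 rose and 3 fell in that contrast.

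Among 1295 other named probe sets with a range over the arrays of at least 1, the 10 whose values were most like the mean of the 5 genes had r from 0.95 to 0.98 over 12 arrays, given as a description. They were AT2G16890, AT3G15720, AT3G15650, AT3G43270, AT2G34930, AT2G46630, AT3G44970, AT5G22460, AT3G02480 and JAL22, a jacalin-related lectin gene. Their group means followed the order BLM, BLM+INA, CK, INA in 10 of 10, with separate arrays in 4 of 10. AT2G16890 was most alike (r = 0.98), with means of 0.27 in BLM+INA, 0.71 in BLM, -0.40 in INA and -0.26 in CK. AT3G15650 (r = 0.97) had 0.73 in BLM+INA, 1.41 in BLM, -0.98 in INA and -0.69 in CK. Within groups the r of these 10 genes with the mean of the 5 ran from -0.66 to 0.43, so the likeness lies in the group means.

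Gene by gene, AT3G15650 and AT2G16890 were the 2 most like DFR (r = 0.98 each) and also the 2 most like AT4G14090 (r = 0.97 and 0.98). AT2G16890 and AT3G15720 were most like UF3GT (r = 0.98 and 0.97). AT5G22460 and SAG29, a gene of the SWEET sugar transporters, were most like AT5MAT (r = 0.97 and 0.96). UGT78D2 had none of these nearest: AT3G21670, of the nitrate and peptide transporter family, and AT2G15020 were most like it (r = 0.96 and 0.94), with means of 0.80 and 0.86 in BLM against 0.061 and 0.15 in CK.

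**Figure D5:**
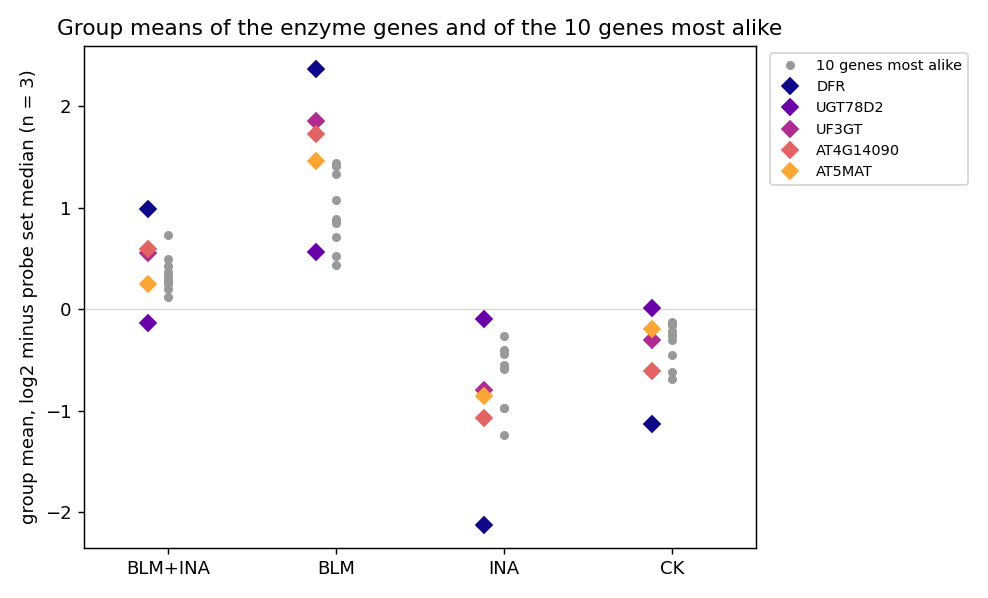
Group means (log2 minus the probe set's median, n = 3, vertical axis) of the 5 enzyme genes (diamonds) and of the 10 named genes whose values were most like their mean (grey points). Both sets are highest in BLM; the grey points there lie between 0.44 and 1.44, and the diamonds reach 2.37 for DFR.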

How the data were processed

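RNA from whole seedlings was amplified, labelled with biotin and hybridised to 1-colour arrays, 1 per replicate. The deposited values are log2 values that the authors made with RMA, per the submitters' processing notes, version not given in the sources used here. Every probe set has a median of 0 over the 12 arrays, so a centring step followed. The log base is RMA's and the table does not state it. No depth exists for arrays.

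A model with a mean for each group was fitted to all 12 arrays and 22746 probe sets in limma 3.58.1 (R 4.3.3), after setting aside 64 controls, with moderated variances (8 residual and 8.82 prior degrees of freedom). The 6 contrasts were two-sided with Benjamini-Hochberg adjustment over all probe sets (threshold 0.05). The gene table paired 13513 probe sets with 1 gene and 503 with several; 8730 were not in it. Symbols came from RefSeq (TAIR10.1), where 77 had no match.

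The members, gene lists and rules were chosen with earlier results of these data known. Named pathway genes were, per list, up to 4 with the largest difference past the threshold in a BLM comparison or the interaction. The model was tested on simulated data. Alternatives were array centring, quantile normalization, array weights, the replicate number as a block, compared groups only, probe sets with 1 gene, no low-level probe sets (5458, with at least 3 arrays off the spacing of values of 4 or over), unmoderated or robust variances, a threshold of 0.01, and each array left out in turn; leaving out the replicate 3 array of every group was added after seeing the data. Figures used matplotlib 3.10.9 in Python 3.11.15.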

Additional observations from a re-analysis of the deposited data

How the results depend on the processing

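The median difference of the 5 enzyme genes kept its direction in the 6 contrasts under array centring, array weights, the replicate block and each array left out. Quantile normalization was applied to values already centred per probe set, so it forced the same distribution of centred values on every array. It is therefore no check of how the uncentred signals were normalized. With it the median moved to -0.78 for INA against CK, 2.50 for BLM against CK and -1.58 for BLM+INA against BLM, and the cause was not tested. Without single arrays it ranged from -0.62 to -0.41 for INA against CK, from 2.08 to 2.23 for BLM against CK, from 0.64 to 1.03 for BLM+INA against CK, from -1.38 to -1.08 for BLM+INA against BLM, from 1.14 to 1.52 for BLM+INA against INA and from -0.72 to -0.50 for the interaction. The other pathway genes called in BLM+INA against BLM numbered 1 in place of 2 (BAN lost) with quantile normalization, array weights, compared groups only, unmoderated variances and a threshold of 0.01. Without low-level probe sets the number was also 1, because BAN itself was among those left out. At that threshold 1 in place of 2 was called in BLM+INA against INA. Without single arrays these numbers ran from 1 to 2 and from 1 to 3, and those for BLM and BLM+INA against CK from 2 to 3 and from 3 to 4. With the arrays numbered 1 and 2 only, a setting added after seeing the data, 1 pathway gene in place of 2 was called in BLM+INA against BLM and in BLM+INA against INA. Of all probe sets 1039 and 3325 were called in these contrasts with that setting. Same-numbered arrays correlated in their deviations from -0.053 to 0.40 (median 0.13) and other pairs from -0.36 to 0.25 (median -0.11). Because deviations sum to 0 within a group, these medians are not independent of each other. Of 12 arrays 7 correlated best with their own number. The positive same-number values were over 0.1 in all 6 pairs of replicate 3 but not in all of numbers 1 and 2, so the numbers were not taken as pairs. The SE and adjusted p values of the main fit therefore keep the shared deviation of the replicate 3 arrays in the spread. Blocking by number nevertheless raised the count of all probe sets called in each of the 6 contrasts. It went from 3790 to 4530 in BLM against CK and from 87 to 170 for the interaction. For BLM+INA it went from 1321 to 1761 against BLM and from 4274 to 5019 against INA. With the replicate block 4 pathway genes in place of 3 were called in BLM against CK, HCT being the added gene (adjusted p = 0.0283), and other glycosyltransferase genes numbered 11 in place of 10 there, 7 in place of 4 in BLM+INA against BLM (6 upward, 1 downward) and 12 in place of 9 in BLM+INA against INA. No count or depth exists for arrays, and 3 arrays per group limit what could be detected.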

Other observations

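Of the 48 other glycosyltransferase genes found by name, the 4 that rose in BLM+INA against BLM are given here after their values were seen. The median of all 48 was -0.020. UGT87A2 rose by 0.75 ± 0.11 (limma adjusted p = 0.000319), UGT76B1, which glucosylates the defence signal isoleucic acid, rose by 0.63 ± 0.14 (adjusted p = 0.0104), UGT71B6, an abscisic acid glucosyltransferase, rose by 0.62 ± 0.13 (adjusted p = 0.00866) and UGT71B1 rose by 0.40 ± 0.09 (adjusted p = 0.0158). The calls of UGT76B1, UGT71B6 and UGT71B1 were lost without BLM+INA replicate 1 (0.57, 0.48 and 0.37) or BLM replicate 1 (0.46, 0.53 and 0.35), and that of UGT71B1 also without BLM+INA replicate 2 (0.38), without the replicate 3 arrays (0.44) and with only the compared groups in the fit. With unmoderated variances UGT76B1 and UGT71B6 did not pass (adjusted p = 0.0869 and 0.0743). The probe set of UGT71B6 was itself among the low-level probe sets, so it has no result in the setting that left those out.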
